A study of Homo sapiens with 20 samples.

Results

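Among the contacts that the authors scored on single chromosomes, 341 of 182303 (0.187%) had an interaction score of 10 or more in definitive endoderm (DE) cells and under 5 in neuroectoderm (NE) cells. These 341 pairs of fragments, referred to as the DE-strong contacts, are described here. They were chosen by their DE and NE scores, so those scores are given as a description and were not tested. The file listed 766138 contacts in all, and those between chromosomes were not used.

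The scores came from Poised Enhancer Capture Hi-C of human cells, in which a Hi-C library, a record of DNA pieces that lay close together in fixed nuclei, is enriched for restriction fragments that hold poised enhancers. There were 20 libraries of 10 conditions, with 2 libraries per condition. HNES1 is a line of human embryonic stem cells kept in the naive state. It was profiled in that state (day 0, in PD0325901, LIF, Gö6983 and XAV939). It was profiled again 1, 3, 5, 7, 10 and also 14 days into its transition to the primed state in XAV939 alone. H9, another human line, was profiled as primed cells in mTeSR-E8. The DE and NE cells were HNES1 cells differentiated from day 14, so both share that line and that transition. NE received A8301 and LDN193189 for 10 days, inhibitors of the nodal and bone morphogenetic protein pathways, and CD56-positive, EpCAM-negative cells were sorted. DE received Activin A, CHIR99021, FGF2, PI-103, BMP4 and heparin for 1 day. Activin A, PI-103, FGF2, LDN193189 and heparin followed for 2 days. Any sort of the DE cells is not given in the sources used here. A contact score holds no cell type marker, so the identity of the cells could not be checked from these data.

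A poised enhancer carries marks of enhancer competence together with the repressive mark H3K27me3, and lies near genes that are silent in pluripotent cells and switched on in later lineages. Polycomb complexes write and bind H3K27me3, and the regions they occupy can touch over long distances. Definitive endoderm is the germ layer that forms the gut tube, liver, pancreas and lung, under nodal signalling that Activin A mimics in culture. FOXA2, SOX17, EOMES and GATA6 are among the factors that specify it.

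The score is that of the CHiCAGO caller, in which a higher value means more ligated read pairs than the caller's background predicts at that distance. A score of 5 or more is referred to as a call. The file gave 1 score per condition over both libraries. No spread between libraries could be had, and no test between conditions was possible. The intervals on shares are Wilson 95% intervals over contacts and cover counting error only, since contacts of 1 bait or 1 locus are not independent.

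The 341 contacts came from 325 captured fragments (baits), 14 of which had several, and 334 other ends. The median bait was 607 bp long and the median other end 5268 bp. The annotated promoter sequence inside a chosen fragment shows which kind of DNA was joined. RefSeq start sites of 26 protein-coding genes lay in a fragment of 27 of the contacts. The promoters of 6 of them follow, each as the 250 bases before the start site on the gene's own strand, 5′ to 3′, from RefSeq (GRCh38.p14), with every CG dinucleotide in capitals. They were chosen because their contacts are described further on, and they range from 4 to 40 CG. In PLCL1, RGS16 and WNT4 the promoter lay at the bait, and in EPHB3, TCF7L2 and HOXA2 at the other end.
PLCL1, chr2:197804343-197804592, plus strand: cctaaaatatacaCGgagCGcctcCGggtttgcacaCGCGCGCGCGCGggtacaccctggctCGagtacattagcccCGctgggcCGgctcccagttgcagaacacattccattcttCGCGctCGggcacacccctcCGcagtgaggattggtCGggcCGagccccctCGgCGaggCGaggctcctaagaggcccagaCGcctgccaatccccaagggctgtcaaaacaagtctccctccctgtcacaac
RGS16, chr1:182604390-182604639, minus strand: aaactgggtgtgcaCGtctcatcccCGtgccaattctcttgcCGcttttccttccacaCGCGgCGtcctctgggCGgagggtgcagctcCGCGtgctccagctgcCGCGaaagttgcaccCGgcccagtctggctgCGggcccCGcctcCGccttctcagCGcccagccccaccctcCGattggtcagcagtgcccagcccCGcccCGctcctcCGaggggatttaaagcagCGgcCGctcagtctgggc
EPHB3, chr3:184561535-184561784, plus strand: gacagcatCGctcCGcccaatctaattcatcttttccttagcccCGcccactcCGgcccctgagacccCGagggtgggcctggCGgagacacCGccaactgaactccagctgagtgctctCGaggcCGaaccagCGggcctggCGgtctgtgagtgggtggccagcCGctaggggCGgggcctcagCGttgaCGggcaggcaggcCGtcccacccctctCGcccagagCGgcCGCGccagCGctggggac
TCF7L2, chr10:113129021-113129270, plus strand: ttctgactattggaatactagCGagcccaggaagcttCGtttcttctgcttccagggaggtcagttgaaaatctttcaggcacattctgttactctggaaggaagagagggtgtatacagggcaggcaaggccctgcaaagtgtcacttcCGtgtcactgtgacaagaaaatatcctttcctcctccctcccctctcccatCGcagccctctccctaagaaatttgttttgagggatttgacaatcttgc
HOXA2, chr7:27102684-27102933, minus strand: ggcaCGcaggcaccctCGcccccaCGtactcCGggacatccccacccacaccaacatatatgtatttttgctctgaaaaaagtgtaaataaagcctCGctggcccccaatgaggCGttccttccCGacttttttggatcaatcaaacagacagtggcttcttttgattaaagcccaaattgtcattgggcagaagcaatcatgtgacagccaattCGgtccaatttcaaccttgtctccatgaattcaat
WNT4, chr1:22143098-22143347, minus strand: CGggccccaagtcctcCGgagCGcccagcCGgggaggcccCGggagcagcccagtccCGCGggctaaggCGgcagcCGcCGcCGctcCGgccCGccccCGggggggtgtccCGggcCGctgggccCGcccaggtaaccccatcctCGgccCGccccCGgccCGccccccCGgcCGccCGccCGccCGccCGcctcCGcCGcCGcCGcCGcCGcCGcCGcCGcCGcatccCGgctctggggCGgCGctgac

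The WNT4 window held 40 CG, PLCL1 and RGS16 22 each and EPHB3 21. HOXA2 held 8 and TCF7L2 4. Over the 32 such windows in DE-strong fragments the median was 18.5 CG, against 11 over all 34943 windows in the table. The windows include promoters at baits, which the capture chose, and at other ends, which it did not. TGTTTAC, the core letters of a forkhead motif, was found on either strand in 0 of the 32 windows and in 2.98% of all windows. AGATAA, which holds the core bound by erythroid and endodermal zinc finger factors, was found on either strand in 4 of the 32 (12.5%) and in 9.19% of all windows. These are matches of letters in a window and say nothing about binding.

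DE scores of the 341 contacts lay between 10 and 23.1, with a median of 11 and quartiles of 10.4 and 11.9. Of the 341, 170 scored 10 to under 11, 46 reached 13 and 10 reached 15. In NE the median was 2.51. The NE score was 0 in 40 contacts, under 1 in 77 and between 3 and 5 in 134, of which 70 lay between 4 and 5. Just inside the DE limit stood CDK13 to YAE1 (10.0131), FGF3 to LTO1 (10.0164) and VAX1 to HSPA12A (10.0211). Such pairs of names give the gene nearest to the bait and then the gene nearest to the other end. The nearest gene can lie far from the fragment. Just outside stood NECTIN1 to TRIM29 (9.9961), CNIH3 to AGO4 (9.9959) and ELAPOR2 to LOC124901689 (9.9848). On the NE side, FBXO8 to HAND2 (4.9888), CD82 to TSPAN18 (4.9912) and TCF20 to NFAM1 (4.9930) were just inside. URB1 to CFAP298 (5.0043), NT5M to RAI1 (5.0164) and CCDC51 to NME6 (5.0304) were just outside.

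In the 8 conditions that the rule did not use, the median scores of the DE-strong contacts were low, from 1.38 on day 1 to 2.51 in H9. Day 14, the cells from which DE was made, had a median of 2.05. Naive cells had 1.44, day 3 1.76, day 5 1.54, day 7 1.64 and day 10 1.54. Each condition nevertheless had a tail of high scores, up to 17.6 in naive cells, 14.8 on day 14 and 19.7 in H9. DE held the highest of all 10 scores in 323 of the contacts, a count the rule favours. In the other 18 another condition was at or above DE.

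**Figure D1:**
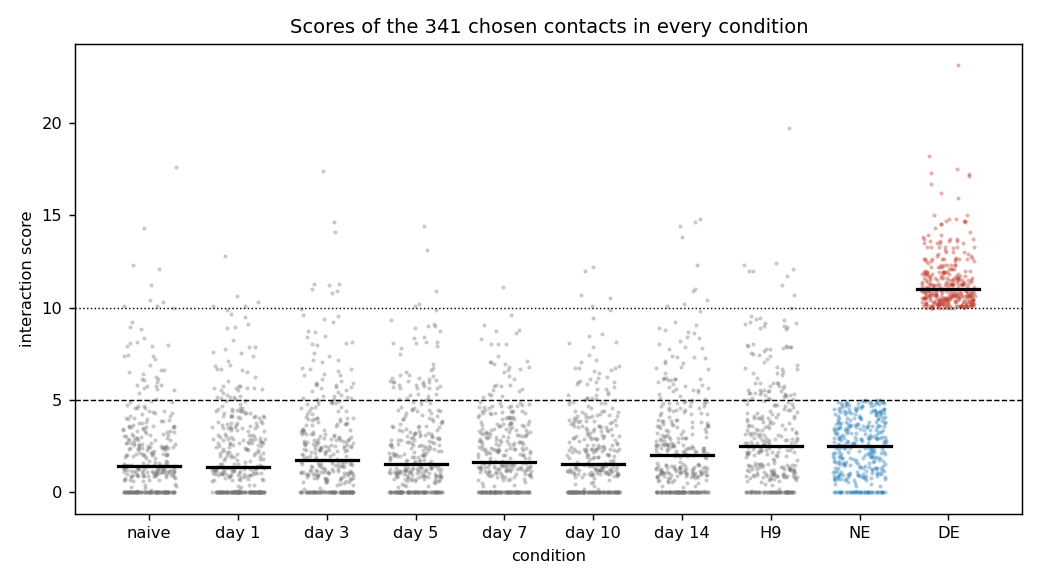
Interaction score (vertical axis, no unit) of each of the 341 DE-strong contacts in the 10 conditions (horizontal axis), 1 point per contact, with a black bar at the median, a dashed line at 5 and a dotted line at 10. The DE and NE points stop at 10 and 5 because the rule chose them there, and in the other 8 conditions the medians lie between 1.38 and 2.51 with single contacts reaching as high as 19.7.

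Over the other 8 conditions, 188 of the 341 contacts (55.1%) were called at least once, and 153 (44.9%) were called in DE only. Among the 25479 contacts with a DE score of 5 to under 10 and an NE score under 5, which serve as the background, 19.9% were called in any of the 8. A higher score in DE therefore went with more calls elsewhere. The mirror set, 509 contacts with 10 or more in NE and under 5 in DE, gave 54.6%, close to the DE-strong value. The 468 contacts with 10 or more in DE and 5 or more in NE gave 87.0%. A score of 10 or more in at least 1 of the 8 conditions was found in 36 DE-strong contacts (10.6%), in 1.05% of the background, in 11.4% of the NE-strong set and in 43.4% of those 468.

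By condition, H9 called the most of the DE-strong contacts, 82 (24.0%, interval 19.8 to 28.9), against 5.06% of the background. Day 14 called 59 (17.3%, interval 13.7 to 21.7), against 4.22%. Naive cells called 42 (12.3%, interval 9.24 to 16.2), against 3.22%. The shares on days 1, 3, 5, 7 and 10 were 13.2%, 16.1%, 16.4%, 9.97% and 12.6%, beside background shares of 3.27%, 4.18%, 3.85%, 3.32% and 3.55%. H9 also made the most calls of these 8 over all contacts within chromosomes (13.0%, against 11.2% on day 14 and 10.0% in naive cells), so its first place is not particular to the DE-strong contacts. DE made 29563 calls within chromosomes and NE 32672, against 18272 to 23764 in the other conditions. The mirror NE-strong set had 21.8% in H9, 15.9% on day 14 and 14.9% in naive cells.

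**Figure D2:**
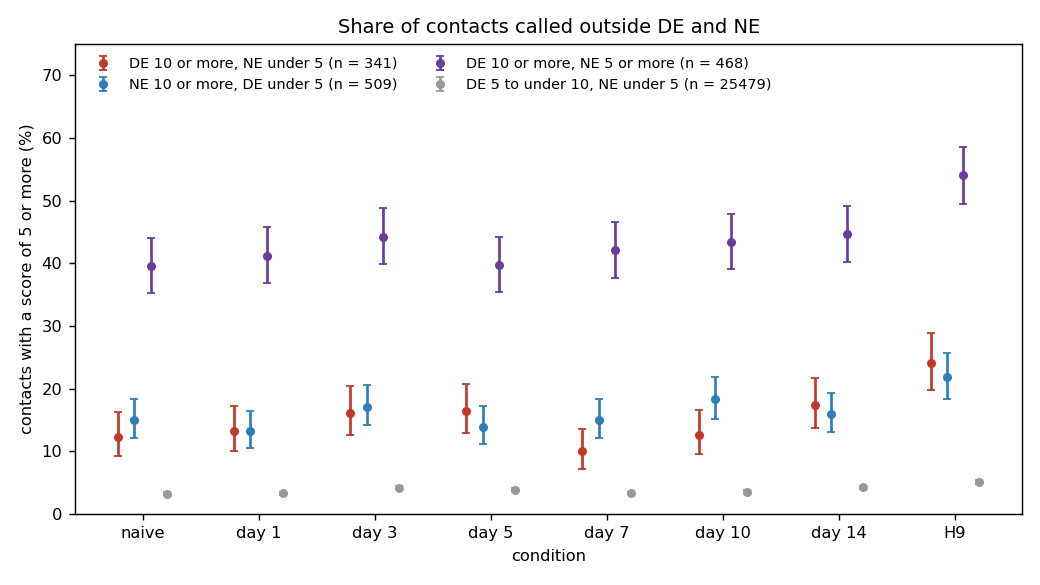
Share of contacts with a score of 5 or more (vertical axis, percent) in each of the 8 conditions outside DE and NE (horizontal axis), with Wilson 95% intervals, for the 341 DE-strong contacts (red), the 509 NE-strong contacts (blue), the 468 strong in DE and called in NE (purple) and the 25479 of the background (grey). The DE-strong and NE-strong intervals overlap in every one of the 8 conditions, between the background at 3.22% to 5.06% and the shared contacts at 39.5% to 54.1%.

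The primed conditions together, day 14 or H9, called 113 of the DE-strong contacts (33.1%, background 8.38%), and 28 of these (8.21%, background 0.887%) were called in both. Naive cells and day 14 shared 16 (4.69%, background 0.514%), and 16 (4.69%, background 2.24%) were called in naive cells but in neither primed condition. Exactly 1 other condition called 85 contacts (24.9%, background 13.4%), 2 called 44 (12.9%, background 4.06%), 3 called 25 (7.33%, background 1.5%) and 4 called 16 (4.69%, background 0.616%). Calls in 6 or more of the 8 were found in 10 contacts (2.93%), against 0.169% of the background, 3.73% of the NE-strong set and 24.6% of the contacts strong in DE and called in NE. No DE-strong contact was called in all 8.

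The 10 contacts called in 6 or more conditions had a highest score outside DE of 8.96 to 17.6. RPL11 to ID3 (89.9 kb) scored 8.16 in naive cells, 12.2 on day 10, 14.4 on day 14, 11.7 in H9, 2.66 in NE and 10.0 in DE. ID3 is an inhibitor of basic helix-loop-helix factors and a target of bone morphogenetic protein signalling. Its NE score was the lowest of its 10 values, and DE was below day 14. RNASE3 to RNASE4 (154 kb) scored 10.3 in naive cells, 12.8 on day 1, 10.4 on day 14, 12.1 in H9, 4.24 in NE and 12.9 in DE. KIAA0040 to TNR (159 kb) was called in 7 of the 8 conditions with scores up to 8.96, and scored 3.80 in NE and 10.8 in DE. The others called in 6 or 7 conditions, of which those beyond the first 5 were named after their values were seen, were at NHEJ1, AEN to MRPS11, SKAP2 to HOXA2, RGS16 to NPL, EPHB3 to VPS8, TLL2 and N4BP3 to NHP2.

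At the other extreme, 8 contacts scored 0 in all 9 other conditions. Such contacts were not counted in the background. A score of 0 was more common there in each of those conditions, as in NE (25.9%, DE-strong 11.7%) and naive cells (43.1%, DE-strong 25.2%). The 8 included ONECUT2 to WDR7 (701 kb, DE score 13.1), IRX1 to a bait downstream of IRX1 (614 kb, 11.9), HS3ST3B1 to HS3ST3A1 and EFNB1 to PJA1. The rest were a contact beside CRYBA4, IRS4 to GUCY2F, LMNA to PIGK and FDXR to EVI2B. ONECUT2 is a transcription factor of liver and pancreas development, and IRX1 is a homeobox factor. Both had captured fragments within or at the gene. At ONECUT2 to WDR7, pairs within 25 kb of both ends reached 7.44 in DE and 7.58 in NE. These contacts, those at the NE limit and those named with SCRG1, TCF7L2, PLAGL1 and OLFM1 were singled out after their values were seen.

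Other calls in the same place were common. For each contact, other calls were sought whose ends both lay within 25 kb of its ends, from the same bait or from another. Such a neighbouring DE call existed for 284 of the 341 contacts (83.3%, interval 79.0 to 86.9). A neighbouring NE call existed for 278 (81.5%, interval 77.1 to 85.3), although NE scored under 5 at the chosen pair itself. In the background these shares were 54.4% and 54.8%. On day 14 the share was 67.7%, against 42.9% in the background. For the mirror NE-strong set the shares were 83.1% in DE, 86.4% in NE and 72.1% on day 14.

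Of the 341, 254 had neighbouring calls in both DE and NE, 30 in DE but not NE, 24 in NE but not DE and 33 in neither. The best neighbouring score had a median of 8.22 in DE and 7.93 in NE, and in 156 contacts the NE neighbour was the higher. A neighbouring NE score of 10 or more stood beside 98 contacts. In most cases, then, NE had a call elsewhere between the same pair of regions, which was also true of 54.8% of the background. The other counts of this paragraph were not taken in the background or the NE-strong set, so whether they are unusual is not known.

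**Figure D3:**
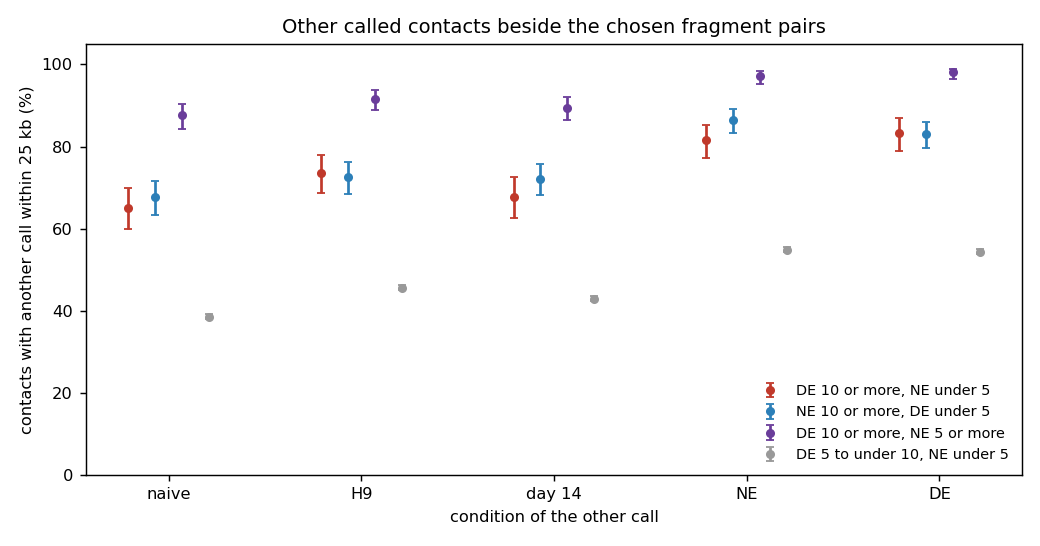
Share of contacts (vertical axis, percent) that had another call within 25 kb at both ends, by the condition of that other call (horizontal axis), with Wilson 95% intervals, for the same sets of contacts. For the DE-strong contacts (red) the NE share of 81.5% and the DE share of 83.3% have overlapping intervals.

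The strongest of all, ZNF639 to ZMAT3 on chromosome 3, shows this. Its bait (chr3:179322319-179322821 on GRCh38) touched an other end 305 kb away (chr3:179014578-179019945). The score was 3.13 in naive cells, 9.49 on day 1, 6.41 on day 3, 1.16 on day 5, 0 on day 7, 4.91 on day 10, 1.33 on day 14, 3.96 in H9, 2.08 in NE and 23.1 in DE. DE stood far above the rest, and days 1 and 3 also passed 5. The best neighbouring score within 25 kb was 11.1 in NE and 9.44 in DE. ZMAT3 is a zinc finger protein of the p53 pathway, and ZNF639 a zinc finger protein.

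The next in rank was NT5M to RAI1 (286 kb), with 18.2 in DE, 4.95 in NE, 9.95 in naive cells and 6.15 on day 14. The adjoining other end of the same bait scored 10.2901 in DE and 5.0164 in NE and missed the rule by its NE score. RAI1 is a chromatin-associated regulator of transcription. FBXO8 to HAND2 (688 kb) followed, and NTF3 to KCNA5 (219 kb) came next, with 17.3 in DE, 3.98 in NE, 8.68 on day 3 and 5.52 on day 1. NTF3 encodes a neurotrophin and KCNA5, which lay 163 kb from the other end, a voltage-gated potassium channel. Neighbouring pairs there reached 20.6 in DE and 15.9 in NE.

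BARX2 to TMEM45B (323 kb) scored 17.2 in DE, 2.43 in NE and 14.1 on day 3, with all other conditions under 5. Another DE-strong contact there (316 kb), from a nearby bait to the adjoining other end, had a different pattern. It scored 13.6 in DE, 1.07 in NE, 10.4 in naive cells, 6.5 on day 1 and 3.85 on day 3. BARX2 is a homeobox transcription factor. ZNF236 to ZNF516 (312 kb) scored 17.1 in DE, 3.83 in NE, 7.06 on day 7, 5.11 on day 14 and 8.88 in H9. Its bait lay 112 kb from ZNF236. PRNP to ADRA1D (339 kb), with a bait 93.4 kb from PRNP, scored 16.7 in DE, 4.56 in NE and 9.19 in H9. It was also called on day 1 (5.2), day 7 (7.37) and day 10 (5.33). A contact inside PLCL1 (324 kb), with the promoter printed above at its bait, scored 16.2 in DE, 4.36 in NE, 8.19 on day 14 and 7.40 in H9. It was also called in naive cells (5.66), on day 5 (5.35) and on day 7 (7.07). The adjoining bait to the same other end (323 kb) scored 14.8 in DE, 2.4 in NE, 2.14 in naive cells and 4.93 on day 14. That pair was called on day 1 (7.09), day 5 (8.87), day 7 (5.3), day 10 (10.5) and in H9 (9.41). Of these contacts, every one had a neighbouring NE call, with best NE scores from 7.15 at BARX2 to 10.0 at PRNP.

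The genes at the contacts were read against lists of developmental genes. A gene was linked where an annotated end of a protein-coding gene lay in the bait or other end widened by 1 kb. A gene end stood at the bait in 73 contacts (21.4%, background 22.0%), at the other end in 50 (14.7%, background 11.1%) at both in 15 (4.40%, background 3.29%) and at either in 108 (31.7%, background 29.8%). Both ends had the same nearest gene in 68 contacts (19.9%), against 29.0% of the background and 17.7% of the NE-strong set. The bait lay inside a gene in 45.7% and the other end in 42.8%, beside 48.6% and 49.9% of the background.

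No gene of the definitive endoderm list (34 genes) was linked to a DE-strong contact, and 0.338% of the background was linked to one. The 0 rests on the limits used. With wider windows, 6 contacts (1.76%, background 0.879%) were linked within 5 kb and 7 (2.05%, background 1.09%) within 10 kb. At 1 kb, 7 of the 1791 contacts with a DE score of 8 or more were linked. With quantile-normalised scores 1 of 189 was. With the nearest gene counted as well, 7 contacts (2.05%, background 1.82%) reached 7 of the 34 genes. They were FOXA1, FOXA2, EOMES, LHX1, OTX2, DKK1 and STC1. FOXA1 and FOXA2 are pioneer factors of endoderm, EOMES is a T-box factor upstream of it, and LHX1 and OTX2 act in its anterior part. DKK1 is a secreted WNT inhibitor.

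FOXA2 had a contact of 143 kb with a bait 150 kb from the gene and the other end 7.25 kb from it. The scores were 2.25 in naive cells, 2.68 on day 1, 2.44 on day 3, 0.494 on day 5, 3.64 on day 7, 4.01 on day 10, 6.13 on day 14, 2.44 in H9, 1.06 in NE and 10.1 in DE. Day 14 was the only other call. A bait inside FOXA1 touched MIPOL1 at 271 kb with 10.4 in DE, 2.50 in NE, 1.39 in H9, 1.32 on day 5 and 0 in the other 6 conditions. EOMES to AZI2 (600 kb) scored 11.1 in DE, 1.48 in NE, 5.37 in H9 and 0.530 on day 14, and neighbouring NE pairs reached 9.46. LHX1 to DHRS11 (355 kb, 10.8 in DE, 2.16 in NE), the contact beside DKK1 (175 kb, 10.4 and 1.71) and OTX2 to EXOC5 (135 kb, 10.2 and 3.18) had neighbouring NE scores of 12, 11.0 and 11.4. ADAM28 to STC1 (331 kb) scored 11.8 in DE, 1.94 in NE and 6.75 on day 10.

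In the NE-strong set, FOXA2 and SOX17, both endoderm genes, were linked, and 17 contacts (3.34%) reached 8 genes of the endoderm list when the nearest gene was counted. Endoderm genes were thus found at strong contacts of either direction. The numbers are small and the sets were not tested against each other.

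Of the gut derivative list (28 genes), ISL1 was linked in 2 contacts (0.587%, background 0.224%), and with nearest genes 7 contacts (2.05%, background 1.48%) reached ISL1, ONECUT2, IRX1 and PAX9. ISL1, a LIM homeodomain factor of the pancreas, heart field and motor neurons, had 4 contacts. PARP8 to ISL1 (bait chr5:50965573-50966246, other end chr5:51377888-51382519, 414 kb) scored 1.29 in naive cells, 0 on day 1, 1.17 on day 3, 6.51 on day 5, 2.74 on day 7, 6.13 on day 10, 14.8 on day 14, 7.92 in H9, 4.11 in NE and 15.0 in DE. DE and day 14 were nearly equal there. The bait lay 119 kb from PARP8. A bait inside ISL1 met the PARP8 side in the opposite direction at 417 kb, with 13.7 in DE, 4.95 in NE and 8.88 on day 14. A nearby other end of the same PARP8 bait (408 kb), 9.22 kb from ISL1, scored 12.3 in DE, 0 in NE, 1.32 on day 14 and 1.17 in H9. Between these regions, neighbouring pairs reached 19.9 in DE and 13.0 in NE. A contact of ISL1 to the other direction (624 kb) scored 11.8 in DE, 1.11 in NE and under 1 on day 14 and in H9. PAX9, a factor of the pharyngeal pouches, touched SLC25A21 at 254 kb with 11.0 in DE, 4.67 in NE and 0 on day 14.

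The mesoderm and cardiac list (26 genes) had 4 linked contacts (1.17%, background 0.298%), at HAND2, ISL1 and TWIST1. With nearest genes it had 16 (4.69%, background 2.20%), at 10 genes. ISL1 gave 4 of these 16. FBXO8 to HAND2 scored 2.42 in naive cells, 0 on day 1, 0.0878 on day 3, 0.317 on day 5, 0 on day 7, 0.443 on day 10, 3.93 on day 14, 5.78 in H9, 4.99 in NE and 17.5 in DE. HAND2 is a basic helix-loop-helix factor of the heart and limb. From day 1 to day 10 the score stayed under 1. The same region of FBXO8 also touched SCRG1 (702 kb) with 11.0 in DE, 4.90 in NE, 0 on day 14 and 19.7 in H9, the highest score of any DE-strong contact outside DE. TWIST1 had 2 contacts towards POLR1F, with 11.9 and 10.5 in DE and 1.23 and 0.881 in NE. The first scored 9.21 in naive cells, and its other end lay 256 kb from POLR1F. MEF2C had 2, of which 1 joined another bait near TMEM161B (543 kb, 11.3 in DE, 1.60 in NE, 6.74 in H9). Contacts near TBXT, MESP1, KDR, FOXF1, TBX20 and PAX2 scored 10.1 to 11.0 in DE.

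The neuroectoderm list (38 genes) had 3 linked contacts (0.880%, background 0.447%), at NKX2-2, SOX1 and ZIC5, and 10 with nearest genes (2.93%, background 3.19%). NKX2-2, a homeobox factor of ventral neural tube and pancreas, touched RALGAPA2 at 624 kb with 10.5 in DE, 3.04 on day 7 and 0 in the other 8 conditions. A neighbouring DE pair scored 6.04, and no neighbouring pair scored above 0 in NE. SPACA7 to SOX1 (378 kb) scored 11.4 in DE and 1.33 in NE, with a neighbouring NE score of 10.6. SOX1 is an early neural factor. LHX2 to DENND1A (596 kb, 12.6 in DE, 0.495 in NE, 5.17 on day 7), 2 contacts of LHX5 and 1 each of OTP, NEUROG1 and OTX2 were among the rest.

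The HOX list (39 genes) had 3 linked contacts (0.880%, background 0.691%) and 10 with nearest genes (2.93%, background 1.79%), spread over the HOXA, HOXB, HOXC and HOXD clusters. The HOX genes set position along the body axis and are Polycomb-bound in stem cells. SKAP2 to HOXA2 (246 kb) scored 2.43 in naive cells, 5.64 on day 1, 11.2 on day 3, 5.82 on day 5, 6.78 on day 7, 3.78 on day 10, 6.09 on day 14, 9.53 in H9, 2.82 in NE and 12.6 in DE. Its other end held the HOXA2 promoter printed above. It was called in 6 of the other 8 conditions. The next SKAP2 bait to the same other end (245 kb) scored 11.1 in DE and 3.91 in NE and was called on day 1 (10.1) and day 10 (6.48) only, with 1.12 on day 3, 1.27 on day 14 and 4.03 in H9. At HOXC, 3 contacts ran between HOXC4 or HOXC9 and SMUG1. SMUG1 to HOXC4 scored 11.2 in DE and 3.28 in NE, HOXC9 to SMUG1 11.2 and 4.62, and HOXC4 to SMUG1 10.6 and 4.47. Each was called in another condition, and HOXC9 to SMUG1 scored 14.3 in naive cells. They were joined into 1 locus with 2 contacts of ZNF385A, to NFE2 and HNRNPA1, with no HOX gene nearest to either end, and these 5 made the fullest locus of the set.

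In the signalling list, of which 71 genes were found in the annotation, WNT4 and the WNT receptors FZD7 and FZD10 were linked (0.880%, background 0.534%), and with nearest genes 7 contacts (2.05%, background 2.32%) added FZD1, DKK1, FGF3 and FGF18. FZD7 to CDK15 (234 kb) scored 13.8 in DE, 3.55 in NE, 5.52 in H9 and 3.88 on day 14, and neighbouring pairs reached 16.5 in DE and 15.4 in NE. WNT4 to ZBTB40 (255 kb) scored 10.5 in DE, 3.23 in NE, 7.85 in H9, 5.87 on day 10 and 0.945 on day 14. FZD10 to PIWIL1 scored 10.4 in DE and 1.08 in NE. FZD1 to MTERF1 (399 kb) scored 11.5 in DE, 1.42 in NE and 5.38 in H9, without an NE call nearby. Neighbouring pairs there reached 6.25 in DE and 5.41 on day 14.

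FZD7 was also the only gene of the pluripotency list that was linked (0.293%, background 0.122%). DUSP6, a phosphatase that dampens ERK signalling and rises with it, added 4 contacts with nearest genes (5 in all, 1.47%, background 0.765%). These formed 1 locus with DE scores of 11.5, 11.0, 10.4 and 10.0 and NE scores of 0, 0, 3.82 and 0.839. On day 14 they scored 2.56, 1.10, 0 and 1.28. Neighbouring NE pairs still reached 8.06 to 8.82 there.

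The trophectoderm, amnion and extraembryonic endoderm list (16 genes) was met by ISL1 alone, linked in 2 contacts (0.587%, background 0.169%) and nearest in 4 (1.17%, background 0.969%). No Polycomb gene was linked (background 0.110%), and 3 contacts (0.880%, background 0.483%) were nearest to CBX8, EED and PCGF5. ANKRD1 to PCGF5 scored 11.5 in DE, 0.774 in NE and 14.4 on day 5. No housekeeping gene was linked or nearest (background 0.0118% and 0.0628%). Over all lists, 13 contacts were linked (3.81%, background 2.48%) and 58 were linked or nearest (17.0%, background 12.8%, NE-strong 13.4%).

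**Figure D4:**
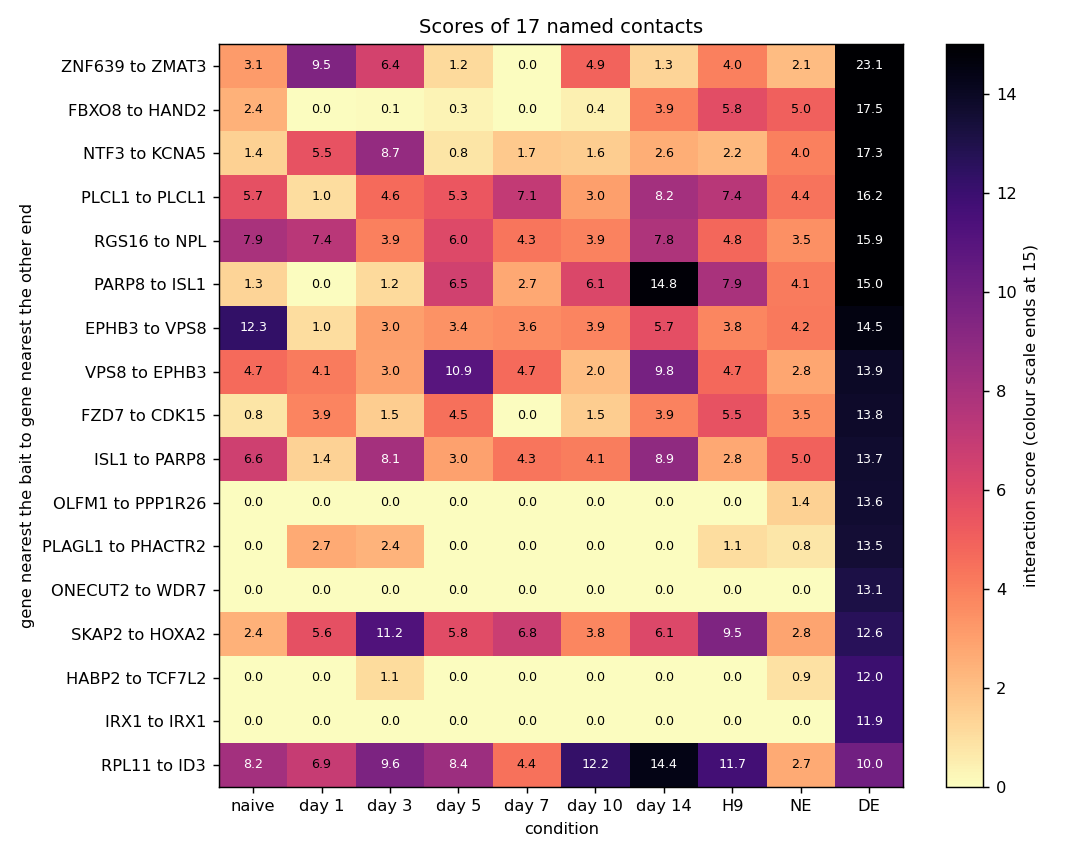
Interaction scores (numbers and colour, no unit, colour scale ending at 15) of 17 named DE-strong contacts (rows, gene nearest the bait to gene nearest the other end) in the 10 conditions (columns), ordered by DE score. RPL11 to ID3 was called in 7 of the other 8 conditions, while ONECUT2 to WDR7 and IRX1 to IRX1 were at 0 everywhere outside DE.

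A neighbouring DE call without a neighbouring NE call was found for 30 contacts. HABP2 to TCF7L2 (427 kb), with a TCF7L2 promoter at its other end, scored 12 in DE, 1.07 on day 3, 0.884 in NE and 0 in the other 7 conditions. TCF7L2 is a nuclear effector of WNT signalling. The best neighbour scored 6.99 in DE, 1.86 in NE and 6.94 on day 14, so day 14 also had a call there. IRX1 to IRX1 scored 11.9 in DE with a neighbour of 6.10 in DE, 1.79 in NE and 0.00619 on day 14. PSD2 to NRG2 (220 kb) scored 12.1 in DE, 0 in NE and 2.97 on day 14. Its best neighbours scored 5.73 in DE, 0.677 in NE and 6.71 on day 14. NRG2 encodes a neuregulin, a ligand of ERBB receptors. PLAGL1 to PHACTR2 (13.5 in DE) and NKX2-2 to RALGAPA2 belonged to the same 30. The best neighbours of PLAGL1 to PHACTR2 scored 6.21 in DE and 7.71 on day 14.

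Contacts gathered in some places. The 334 contacts of at most 2 Mb fell into 258 loci when spans within 250 kb of each other were joined. Of these, 207 held 1 contact, 34 held 2, and 17 held 3 or more with 59 contacts in all. With the 7 longer contacts, whose spans cover others, there were 227 loci.

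At EPHB3, a receptor of ephrin-B ligands, 4 contacts linked the gene region with VPS8 or MAGEF1. EPHB3 to VPS8 (181 kb) scored 14.5 in DE, 4.19 in NE and 12.3 in naive cells. VPS8 to EPHB3 (217 kb), whose other end held the EPHB3 promoter, scored 13.9 in DE, 2.76 in NE, 10.9 on day 5 and 9.80 on day 14. A further EPHB3 to VPS8 pair (223 kb) was higher in naive cells (17.6) and on day 3 (17.4) than in DE (11.6), with 2.96 in NE. EPHB3 to MAGEF1 (159 kb) scored 11.9 in DE, 4.83 in NE and 8.02 in H9. The region thus held calls in naive cells as well as in DE.

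RGS16, a regulator of G protein signalling, had 4 contacts, and its promoter lay at the bait of the strongest. RGS16 to NPL (177 kb) scored 15.9 in DE, 3.48 in NE, 7.92 in naive cells and 7.77 on day 14. The adjoining end (183 kb) scored 12.1 in DE, 4.05 in NE, 14.6 on day 3 and 13.1 on day 5. Contacts towards ZNF648 (520 kb) and RGS8 (162 kb) scored 10.9 and 10.2 in DE. Neighbouring NE pairs near NPL reached 14.4.

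At PAX3, a neural crest and muscle factor, 2 contacts of 235 kb and 239 kb scored 10.6 and 10.4 in DE, 3.82 and 2.94 in NE, and 12.4 and 12 in H9. H9 exceeded DE in both, another contact of the locus scored 10.0 in DE and 1.09 in H9, and neighbouring NE pairs reached 17.4. ADAMTS8 had 4 contacts with ST14 and SNX19, and neighbouring pairs there scored 24.8 in NE and 18.2 in DE. DUSP4, another ERK phosphatase, had 3 contacts with the SARAF region at 655 to 693 kb, with 10.6 to 13.3 in DE and 2.85 to 4.85 in NE. The other loci of 3 or 4 contacts lay at NTF3, TLX1 and BTRC, INCENP and ASRGL1, HOXB, EVA1C and OLIG1, PSD2 and NRG2, the butyrophilin and histone genes of chromosome 6, PEBP4, and CNTFR.

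Bait and other end lay a median of 255 kb apart (interval of the median 238 to 288, quartiles 167 and 403 kb). The background median was 221 kb (219 to 224), the NE-strong median 259 kb (242 to 274) and that of contacts strong in DE and called in NE 231 kb (221 to 250). Under 100 kb lay 26 contacts (7.62%, background 17.8%), and 262 (76.8%) lay between 100 and 500 kb. A further 43 (12.6%) spanned 500 kb to 1 Mb, 3 spanned 1 to 2 Mb and 7 (2.05%, background 0.385%) more than 2 Mb. The NE-strong set had 11.2% under 100 kb and 2.55% over 2 Mb. Contacts strong in DE and called in NE had 11.3% and 7.48%. A share of contacts over 2 Mb above the background is thus not particular to the DE-strong contacts. The caller weighs its score by distance, so distance is not independent of the rule. The other end was upstream in coordinate in 171 and downstream in 170.

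**Figure D5:**
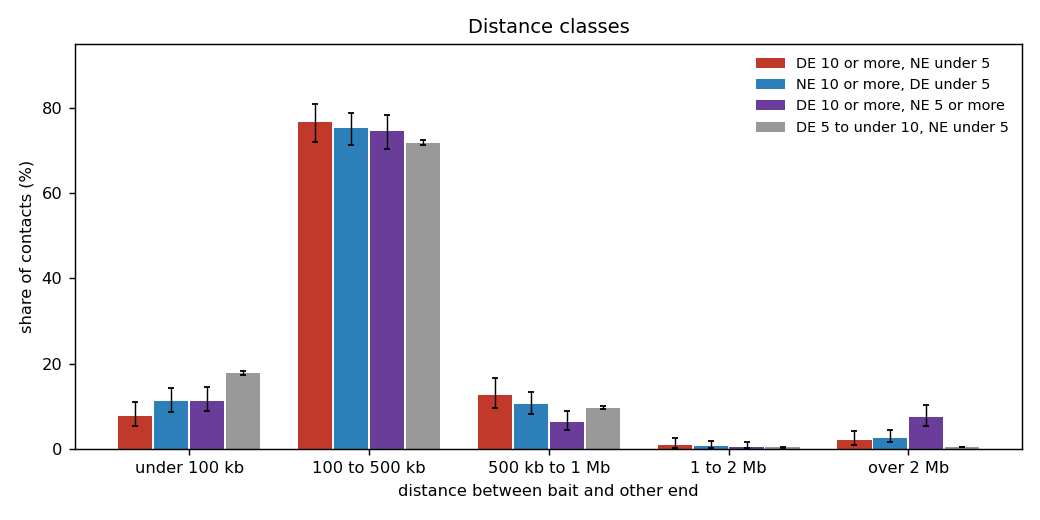
Share of contacts (vertical axis, percent, from 0) in 5 classes of distance between bait and other end (horizontal axis), with Wilson 95% intervals, for the same sets of contacts. The DE-strong contacts (red) have 7.62% under 100 kb, below the 17.8% of the background (grey), and 76.8% between 100 and 500 kb. Under 100 kb their interval overlaps that of the NE-strong contacts (11.2%) and of those strong in DE and called in NE (11.3%).

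The shortest contact, at TLE2, a corepressor that acts with WNT and Notch effectors, spanned 8.07 kb and scored 10.3 in DE, 3.02 in NE and 3.87 on day 14. MEF2D to RHBG (25.4 kb) scored 10.5 in DE, 3.59 in NE and 6.77 on day 14, and a contact inside NHEJ1 (42.4 kb) 13.5 in DE and 4.33 in NE. The longest were 2 contacts named by CROCC with a place at the far end of chromosome 1, 218 Mb away. They scored 11.0 and 10.1 in DE and 0.925 and 0 in NE. In the first, the bait lay 39.1 kb from CROCC and the other end 174 kb from IRF2BP2, its nearest gene. LMNA to PIGK (78866 kb) scored 14.7 in DE, 0 in the other 9 conditions, and had no neighbour above 0 in either DE or NE. KRTAP5-2 to KRTAP5-10 (70.0 Mb, 14.8 in DE, 1.11 in NE) joined both keratin-associated protein clusters of chromosome 11, whose genes are closely related copies. How reads shared by such copies were placed is not given in the sources used here, so this contact is uncertain. FDXR to EVI2B (43.6 Mb), COX7C to DTWD2 (33.0 Mb) and LINC02798 to H3-7 (18.0 Mb) completed the 7. Neighbouring pairs of the last reached 28.4 in NE as well as in DE.

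In 5 listings (1.47%, background 1.35%) both ends were baits. Of these, 2 ran between LOC107987004 and LOC107987020 on chromosome 9, with 13.3 and 11.2 in DE. The fragment they shared lay 770 kb from LOC107987004, its nearest gene. Their opposite ends were adjoining fragments with midpoints 1.11 and 26.9 kb from LOC107987020. The latter fragment, chr9:62748561-62799355, was far longer than the median bait of 607 bp, so its near edge lay much closer to the gene. The others were IRX1 to IRX1, MEF2C to TMEM161B and LINC02798 to H3-7.

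Baits of the DE-strong contacts had a mean of 4.76 calls within chromosomes in DE, 3.59 in NE and 2.46 on day 14. Each holds at least 1 DE call by the rule. Baits of the background, of which the same is true, had 2.15, 1.7 and 1.07, and baits of the NE-strong set had 3.73 in DE, 5.78 in NE and 2.57 on day 14. Calls to other chromosomes averaged 9.12 in DE and 8.09 in NE for the DE-strong baits, against 7.65 and 6.39 for those of the background and 9.3 and 8.32 for those of the NE-strong set. On day 14 these means were far lower, 1.95 for the DE-strong baits, 1.37 for the background and 1.78 for the NE-strong set. Over all listed contacts, DE made 217055 calls and NE 187963, against 43741 to 62210 in the other conditions. The number of read pairs behind each score is unknown, and its part in these differences was not tested.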

How the data were processed

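Per the labels, the deposited matrix held CHiCAGO interaction scores, with 1 score column for each condition, which the authors' labels give for both of its libraries. Coordinates were on GRCh38 per the submitters' processing notes. The aligner, the version of the caller, the binning of other ends and the filters are not given in the sources used here, and read depth is unknown. Every listed contact reached a score of 5 in some condition.

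Contacts with bait and other end on 1 chromosome were filtered by the DE and NE scores as deposited, with no normalisation between conditions. Of the scores within chromosomes, 36.3% were 0. Protein-coding genes (19958, after 94 readthrough genes were left out) came from RefSeq GRCh38.p14. Gene bodies gave the nearest gene, with the distance taken from the midpoint of the fragment. Promoter sequences came from a RefSeq table of the same assembly that was not complete. As a check, 0 of 2287 promoter windows wholly inside a bait held GATC, and 2731 overlapping windows of opposite strand matched.

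The genes named were those of the lists, the 10 contacts with the highest DE score, loci of 3 or more contacts, the longest and shortest 3, the 5 called in the most other conditions, bait-to-bait contacts and the 3 on each side of the DE limit. The text gives a part of these, plus those it says were singled out later. The contacts and gene lists were chosen with earlier results of these data known. Counting used Python 3.11.15, pandas 2.3.3 and numpy 2.4.6, and was tested on simulated data. Some items are not reported here.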

Additional observations from a re-analysis of the deposited data

How the results depend on the processing

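The counts follow the limits of the rule. With a DE score of 8 or more, 1791 contacts were chosen, in 538 loci, 40.7% were called in another of the 8 conditions, 1062 were called in DE only and 56 were linked to a listed gene. With 12 or more, these were 82 contacts, 65 loci, 67.1%, 27 and 4. With NE under 3 there were 207 contacts in 151 loci, 41.5% called elsewhere, 7 linked and a median distance of 317 kb. With NE at 0 there were 40 contacts in 35 loci, 12.5% called elsewhere, 35 in DE only, 1 linked and a median of 397 kb. Quantile-normalised scores gave 189 contacts in 145 loci, 66.1% called elsewhere and 64 in DE only. A call at 3 gave 80.9% called elsewhere and 65 in DE only, and a call at 10 gave 10.6% and 305. Genes linked with no widening numbered 7 contacts, within 5 kb 37 and within 10 kb 44. Linked by the start site in the RefSeq promoter table, an alternative chosen after seeing the data, they numbered 8. Neighbouring calls within 10 kb, also added later, were found for 66.0% (DE) and 64.8% (NE), and within 50 kb for 88.9% and 88.6%. Of 66 alternatives for these values, 29 stayed within the limit set for no change and 37 moved beyond it. Counts, shares and distances have no sign, so a reversal could not be seen. No paired analysis was possible because both libraries of a condition shared 1 score, and for the same reason no library could be left out.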
